A study of Mus musculus with 96 samples.

Results

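Liver RNA from Cry knockout mice fed only at night was compared between the day, when these mice had no food, and the night, when they ate. The rule took the libraries of this group at zeitgeber time (ZT, hours after lights on) 4 and 8 as day and those at ZT16 and ZT20 as night, which gave 8 of the 96 libraries of the series, 4 on each side. Each side held 1 library per time from each of 2 numbered replicate series, series 3 and series 5. Mice of the Cry knockout (Cry KO) lack both Cry1 and Cry2, and ate under night-restricted feeding (RF). For comparison the same times were taken from 3 other groups of 8 libraries: wild-type mice of the Cry line under RF (Cry WT RF), Cry knockout mice fed ad libitum (Cry KO AL), and Bmal1 knockout mice under RF (Bmal1 KO RF). All mice were 12 to 16 weeks old. The labels consulted do not state strain, sex or the tissues in which the genes were deleted. Nor do they say which animal gave which library, and the spread behind each p-value is that between libraries, which may be partly technical.

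In the mammalian clock, CLOCK and BMAL1 activate genes through E-box sequences, and the PER and CRY proteins that result repress that activation. Without CRY1 and CRY2 this loop does not cycle. Meals act on the liver by other routes: insulin after feeding restrains FOXO transcription factors and turns on lipid synthesis through SREBP proteins, while fasting favours glucose production, fat oxidation and autophagy. Body temperature, which follows activity and meals, acts on heat shock factor 1 (HSF1) and its chaperone genes, and protein secretion loads the endoplasmic reticulum (ER), whose unfolded protein response induces ER chaperones. A comparison of day with night in animals without a cycling clock asks which liver transcripts still differ between the fasted and the fed part of the day.

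Total counts of the 96 libraries ran from 1478963 to 35568856, with a median of 25422366. Both ZT4 libraries of Cry KO RF were shallow, with 1478963 counts in series 3 and 4541141 in series 5, while the other 6 held 24228680 to 31826439. In the comparison groups the ZT20 libraries of series 2 were shallow too, with 2694543 counts in Cry KO AL and 3181499 in Bmal1 KO RF. A level of 5 CPM (the normalised count scaled to a common library size) stood for 7.39 counts in the shallowest library. Hepatocyte markers summed to between 98700 and 131600 CPM in the 8 libraries, so the defining transcripts of the labelled tissue were present. Markers of exocrine pancreas were not confined to trace levels: they summed to 1086 CPM in the ZT4 library of series 5 and to 141.7 CPM in its ZT8 library, against 0.634 to 13.2 CPM in the other 6. Those 2 day libraries therefore stand apart, and counts of the day-night test in Cry KO RF are also given without them. The panels of library totals and marker sums show these libraries.

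**Figure D1:**
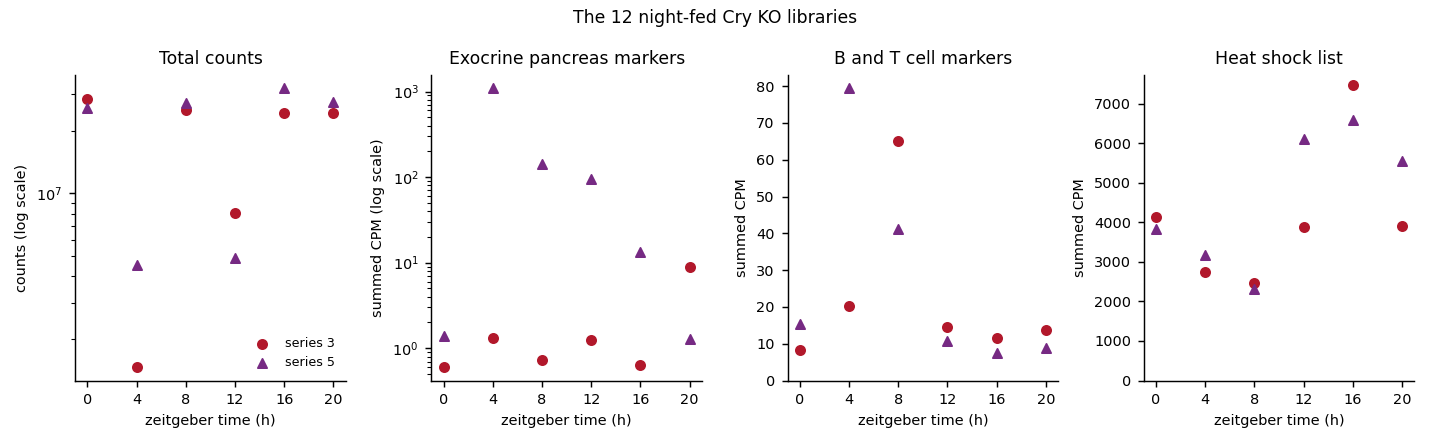
Total counts, summed CPM of exocrine pancreas markers (both on log axes), summed CPM of B and T cell markers and summed CPM of the heat shock list (linear axes) against zeitgeber time for the 12 Cry KO RF libraries, series 3 as circles and series 5 as triangles. The shallowest library is that of series 3 at ZT4, and pancreas markers reach 1086 CPM in series 5 at ZT4, while the heat shock list lies between 2323 and 3167 CPM at ZT4 and ZT8 and between 3907 and 7475 CPM at ZT16 and ZT20.

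The deleted genes were still counted. Cry1 (ENSMUSG00000020038, mm10 chromosome 10, 85131700 to 85185064) stood at 8.35 to 12.2 CPM in the 8 libraries and did not differ between day and night, with a log2 difference of -0.10 ± 0.16 (day minus night, ± SE; adjusted p = 0.74). In Cry WT RF it fell by day, with a log2 difference of -2.16, and the difference between the groups was 2.05 ± 0.32 (adjusted p = 0.000864). Cry2 (ENSMUSG00000068742, chromosome 2, 92403646 to 92434043) had a log2 difference of 0.38 ± 0.17 (adjusted p = 0.197) in Cry KO RF. Counts over a whole gene include transcripts of a deleted allele, so these levels do not test the deletion itself.

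Of 14581 genes tested, 728 (4.99%) differed between day and night in Cry KO RF at an adjusted p under 0.05 (edgeR's quasi-likelihood test with the 2 series as blocks, Benjamini-Hochberg adjustment over all genes). Levels were higher by day for 339 genes (2.32%) and higher by night for 389 (2.67%), and 326 (2.24%) differed by at least 2-fold, 187 upward and 139 downward. The median log2 difference of all genes tested was 0.01. All 4 day libraries lay outside the range of the 4 night libraries for 632 of the 728 (4.33% of genes tested), and for 2031 genes (13.9%) of all those tested. With the shallow ZT4 libraries left out, ZT8 alone against night called 238 of 14772 genes (1.61%), 124 higher by day (0.839%) and 114 higher by night (0.772%), of which 185 were among the 728. That fit reuses 6 of the 8 libraries, so the direction of genes chosen in all 8 is no separate evidence.

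The count depended on single libraries. Without the ZT8 library of series 5 the test called 43 genes, and without the ZT16 library of series 5 it called 52. It called 228 without ZT20 of series 5, 266 without ZT4 of series 3, 287 without ZT8 of series 3 and 1187 without ZT20 of series 3. Without both libraries that held pancreas markers it called 17, and 15 of these were among the 728. By day that fit kept only the ZT4 and ZT8 libraries of series 3, the first of which is the shallowest. How much of the drop came with fewer and shallower libraries was not tested. Of the 728, 720 were tested in it and all 720 kept their direction, which is no separate evidence since the libraries are reused. The series taken alone, with 4 libraries each, called 17 genes in series 3 and 503 in series 5. Of 75 genes that passed and are described here, pancreas markers aside, 41 passed from ZT8 alone, 20 without ZT8 of series 5, 23 without ZT16 of series 5 and 9 without the libraries with pancreas markers. The adjusted p-values given for single genes hold for the 8 libraries together.

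Among called genes of at least 5 CPM whose day and night libraries did not overlap and whose direction was the same at ZT8 alone, the largest rises by day were in Ppp1r3g, a subunit that directs protein phosphatase 1 to glycogen, and in Igfbp1, a secreted binding protein of insulin-like growth factors that insulin represses. Larger rises, up to 6.45 for the pancreas marker Cpb1, fell outside this rule because day and night overlapped. For genes named under the rule, absence of overlap was a condition of the choice and is no separate evidence. The largest falls under the rule were in Angptl8, a feeding-induced inhibitor of lipoprotein lipase, in Hapln1, a matrix link protein, and in the chaperone gene Hspa1b. Other rises came from Rgs16, a regulator of G protein signalling, Gpcpd1, a glycerophosphocholine phosphodiesterase, Hdc, which makes histamine, Smad9, a signal transducer of bone morphogenetic proteins, Fbxo32, a FOXO-induced ubiquitin ligase subunit, Slc8b1, a mitochondrial sodium/calcium exchanger, Lpin2, a phosphatidate phosphatase, and Tcp11l2. The plot of the largest changes gives each with its error, and beside it the value from ZT8 alone.

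**Figure D2:**
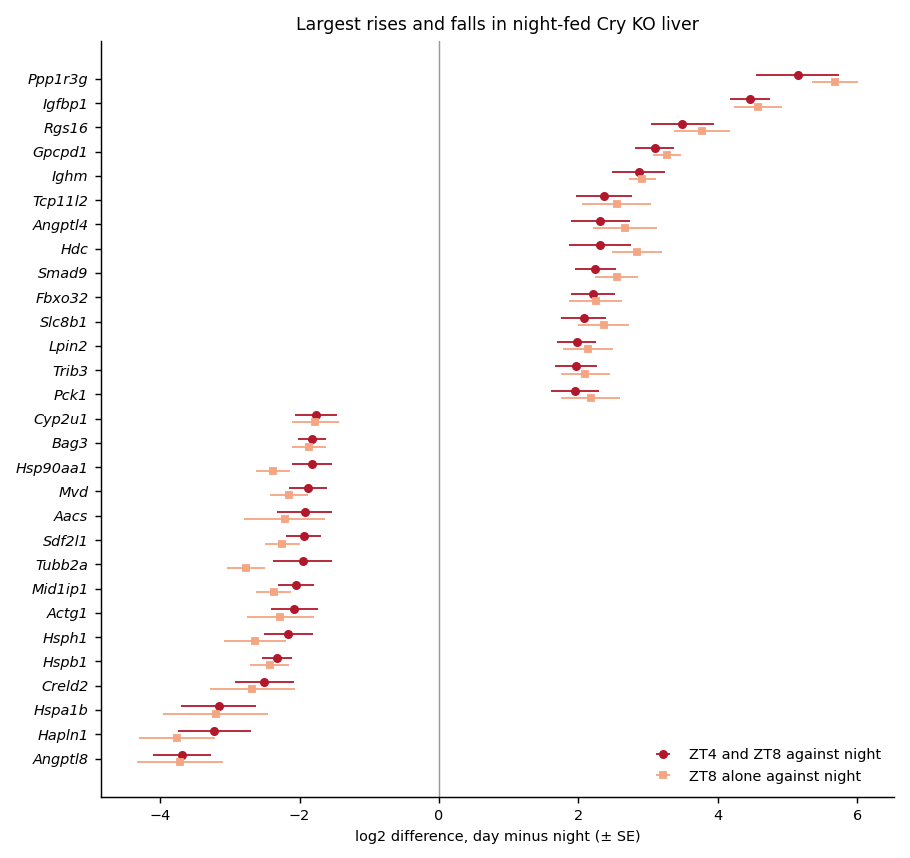
Log2 difference between day and night (± SE) of 29 of the 30 genes with the largest rises and falls under the naming rule in Cry KO RF (1 is not reported here), from all 8 libraries (dark circles) and from ZT8 alone against night (pale squares). The rule required the same direction at ZT8, where estimates run from 5.68 for Ppp1r3g to -3.75 for Hapln1.

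A few genes of glucose production and of insulin and FOXO signalling were higher by day, and most members of both lists did not pass. Among 13 tested members of the insulin and FOXO list, 3 rose (Igfbp1, Trib3 and Irs2) and none fell, with a list median of 0.37 on the log2 scale, where 2.32% of all genes tested rose and their median was 0.01. Of 14 tested members of the gluconeogenesis list, 3 rose (Pck1, Ppargc1a and G6pc) and none fell, with a median of 0.32. Without the ZT8 library of series 5, or without that of ZT16, 1 member of the first list and none of the second passed. Without the 2 libraries with pancreas markers the counts were also 1 and 0. Gluconeogenesis kept 1 call without ZT4 of series 3 or without ZT20 of series 5, and 1 from ZT8 alone.

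Igfbp1 (ENSMUSG00000020429, chromosome 11, 7197782 to 7202546) stood at 135 CPM in series 3 and 93.5 CPM in series 5 at ZT4, and at 124 and 121 CPM at ZT8. At night it was 9.34 and 3.31 CPM at ZT16 and 9.8 and 2.49 CPM at ZT20, in the same order. The lowest day library was thus far above the highest night library, and the means were 118.5 ± 17.8 CPM by day and 6.23 ± 3.87 CPM by night (SD, n = 4 each). The log2 difference was 4.46 ± 0.29 (edgeR, adjusted p = 0.000327), and 4.58 from ZT8 alone (adjusted p = 0.00822). In Cry WT RF single libraries at ZT12 and ZT20 reached 299.9 and 293 CPM, and its log2 difference was 0.15 (adjusted p = 0.95). The difference between Cry KO RF and Cry WT RF was 4.293 ± 1.505 and did not pass (edgeR, adjusted p = 0.1758). Nor did the differences from Cry KO AL (adjusted p = 0.346) and Bmal1 KO RF (adjusted p = 0.3927).

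The promoter of Igfbp1 is shown because insulin is known to repress this gene through a FOXO site near its start. The sequence is the 250 bases before the RefSeq start (GRCm38.p6, chr11:7197537-7197786, plus strand), and capitals mark AAACAAAC, searched on both strands (GTTTGTTT on the other). These letters occurred in 3.06% of 27025 genes with a promoter in the table. Among 11 members of the insulin and FOXO list that matched, only Igfbp1 held them.
Igfbp1: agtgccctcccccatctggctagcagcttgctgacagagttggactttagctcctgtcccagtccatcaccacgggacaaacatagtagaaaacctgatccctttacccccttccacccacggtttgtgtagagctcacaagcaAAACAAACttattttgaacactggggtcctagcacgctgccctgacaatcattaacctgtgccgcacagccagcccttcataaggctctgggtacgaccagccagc

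Pck1, the rate-limiting enzyme of gluconeogenesis, stood at 4037 and 2750 CPM at ZT4 and at 4095 and 5685 CPM at ZT8 (series 3, then series 5). Its night values were 728 and 579 CPM at ZT16 and 1576 and 1427 CPM at ZT20. Day and night did not overlap, although ZT20 was above ZT16 in both series, and the log2 difference was 1.95 ± 0.35 (adjusted p = 0.0208). G6pc, the catalytic subunit that releases free glucose, rose by 1.34 ± 0.26 (adjusted p = 0.0253), from 193 to 371 CPM at night to 423 to 834 CPM by day. Ppargc1a, a coactivator induced by fasting, rose by 1.43 ± 0.27 (adjusted p = 0.0236). Foxo1 itself had a log2 difference of 0.74 ± 0.22 (adjusted p = 0.084).

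Irs2, an adaptor of the insulin receptor that falls after meals, measured 21 and 21.5 CPM at ZT4 and 37.3 and 21.5 CPM at ZT8. At night it was 5.23 and 9.72 CPM at ZT16 and 17.2 and 4.7 CPM at ZT20. The log2 difference was 1.52 ± 0.36 (adjusted p = 0.043), close to the threshold. Trib3, a pseudokinase that binds AKT, rose by 1.97 ± 0.30 (adjusted p = 0.015), but its level never exceeded 11 CPM in the 8 libraries. The glycogen list moved both ways: Ppp1r3g rose by 5.14 ± 0.60 (adjusted p = 0.00798) from 0.0804 to 0.602 CPM at night to 1.83 to 18.1 CPM by day. Ppp1r3c, another glycogen-targeting subunit, fell by 1.25 ± 0.20 (adjusted p = 0.0151). The other 16 members of this list did not pass, where 4.99% of all genes did. The list kept 1 call, a rise, without ZT8 or without ZT16 of series 5, and 0 without the libraries with pancreas markers.

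Genes of autophagy and of the amino acid response were also among the rises. Of 13 tested autophagy genes, 4 rose and none fell, with a median of 0.35, beside 2.32% rising among all genes. Ulk1, the kinase that starts autophagy, stood at 95.5 to 114 CPM in the day libraries and at 31.2 to 69.3 CPM in the night ones, a log2 difference of 1.08 ± 0.24 (adjusted p = 0.0332). Wipi1, which binds the forming autophagosome, rose by 1.33 ± 0.17 (adjusted p = 0.0117), and the ATG8 family genes Gabarapl1 and Map1lc3b rose by 0.83 and 0.44. In the ATF4 list, 3 of 16 rose and 1 fell, where 2.32% of all genes rose and 2.67% fell. Those that rose were Chac1, which degrades glutathione, Sesn2, an inhibitor of mTORC1, and Trib3, and the one that fell was Aars, an alanyl-tRNA synthetase. Chac1 was low, with means of 3.245 CPM by day and 0.5725 CPM by night. The list had 2 calls without ZT8 of series 5, 1 without ZT16 of series 5 and 0 without the libraries with pancreas markers. Autophagy kept 1 call without the ZT8 library of either series or without ZT16 of series 5, 2 without either ZT4 library or without ZT20 of series 5, and 0 without the libraries with pancreas markers.

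Among fat oxidation genes 2 of 24 rose and 1 fell, where 2.32% of all genes rose and 2.67% fell. No member passed without ZT4 of series 3, without ZT8 of series 5 or without ZT16 of series 5, and 1 passed without ZT20 of either series or without the libraries with pancreas markers. Angptl4, a fasting-induced inhibitor of lipoprotein lipase, stood at 137 and 72.9 CPM at ZT4 and 188 and 129 CPM at ZT8. Its night values were 10.6 and 28.2 CPM at ZT16 and 25.3 and 46.1 CPM at ZT20. The log2 difference was 2.32 ± 0.43 (adjusted p = 0.0227), with no overlap. Cpt1a, which admits fatty acids to mitochondria, rose by 0.88 ± 0.20 (adjusted p = 0.0359), while Cpt2, the next enzyme in that route, fell by 0.45 ± 0.11 (adjusted p = 0.0491), a call that RLE size factors did not keep. Slc7a2, a transporter of cationic amino acids, and Got1, an aspartate aminotransferase, rose by 1.46 and 1.45. Nags, which makes the activator of the urea cycle, fell by 0.53, and the other 21 members of the amino acid catabolism list did not pass. ZT8 alone called none of the 24, as did the fit without the libraries with pancreas markers, and 1 passed without ZT4 of series 3 or without ZT8, ZT16 or ZT20 of series 5.

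The heat shock list, mostly of chaperone genes, gave the most uniform shift. Of 20 heat shock genes tested, 17 were lower by day and none higher, where 2.67% of all genes were lower. The list median was -1.18 on the log2 scale against 0.01 for all genes. Their summed level was 2323 to 3167 CPM in the 4 day libraries and 3907 to 7475 CPM in the 4 night libraries. The 3 that did not pass were Hsf1, the regulator of the list (log2 difference -0.11 ± 0.13), Hspd1, the mitochondrial HSP60 (-0.24 ± 0.11), and Hspa1a, which was at 0 to 1.08 CPM. ZT8 alone called 9 of the 20. The count was 4 without ZT8 of series 5, 5 without ZT16 of series 5, 10 without ZT4 of series 3, 10 without ZT20 of series 5, 11 without ZT8 of series 3 and 1 without both libraries with pancreas markers. All calls in these fits were lower by day.

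Hspb1 (ENSMUSG00000004951, chromosome 5, 135887919 to 135889563), a small heat shock protein that holds unfolded proteins, stood at 9.2 and 8.46 CPM at ZT4 and at 8.28 and 6.63 CPM at ZT8. At night it was 66 and 33 CPM at ZT16 and 34.5 and 31.2 CPM at ZT20. Every night library was above 31 CPM and every day library under 10 CPM, and the library of series 3 at ZT16 was the highest. The means were 8.14 ± 1.08 CPM by day and 41.2 ± 16.6 CPM by night (SD, n = 4 each), and the log2 difference was -2.32 ± 0.21 (adjusted p = 0.00301).

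Hsph1, a large chaperone that recharges HSP70, was 48 and 53.7 CPM at ZT4 and 27.2 and 25.4 CPM at ZT8. It was 206 and 211 CPM at ZT16 and 70.1 and 192 CPM at ZT20. The log2 difference was -2.16 ± 0.36 (adjusted p = 0.0169), and at ZT20 the 2 series stood far apart. Hsp90aa1, the inducible cytosolic HSP90, fell by 1.82 ± 0.28 (adjusted p = 0.015), Bag3, a cochaperone of HSP70, by 1.81 ± 0.20 (adjusted p = 0.00798), Chordc1, a cochaperone of HSP90, by 1.5 ± 0.20, and Fkbp4, an immunophilin of steroid receptor complexes, by 1.14 ± 0.17. Hspa1b fell by 3.16 ± 0.54 (adjusted p = 0.0183), but its coding sequence is nearly identical to that of Hspa1a, so the split of reads between the pair is uncertain.

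Promoters of 2 of these genes are shown because HSF1 binds inverted repeats of GAA in such regions. The searched motif was GAANNTTC, which reads the same on both strands. It was found in the 250 bases before the start of 7 of 16 heat shock genes that matched the RefSeq table. The share was 7.73% of all 27025 genes and 6.27% of 10662 genes tested. The 7 were Hspa1a, Hspa1b, Hspb1, Hspd1, Hspe1, Dnaja1 and Fkbp4, of which Hspa1a and Hspd1 did not pass. Hsph1, Hsp90aa1, Bag3 and Chordc1 were not among the 7, though members without a match were not searched. Whether the motif goes with the day-night difference was not tested. Capitals mark GAANNTTC in Hspb1 (GRCm38.p6, chr5:135887669-135887918, plus strand), where it began 117 and 97 bases before the start, and in Fkbp4 (chr6:128438657-128438906, minus strand), where it began 151 bases before it.
Hspb1: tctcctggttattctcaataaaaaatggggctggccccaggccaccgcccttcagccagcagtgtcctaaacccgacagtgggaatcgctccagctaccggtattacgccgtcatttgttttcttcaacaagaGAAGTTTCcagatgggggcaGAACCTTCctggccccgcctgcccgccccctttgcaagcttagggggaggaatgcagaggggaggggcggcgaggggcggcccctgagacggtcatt
Fkbp4: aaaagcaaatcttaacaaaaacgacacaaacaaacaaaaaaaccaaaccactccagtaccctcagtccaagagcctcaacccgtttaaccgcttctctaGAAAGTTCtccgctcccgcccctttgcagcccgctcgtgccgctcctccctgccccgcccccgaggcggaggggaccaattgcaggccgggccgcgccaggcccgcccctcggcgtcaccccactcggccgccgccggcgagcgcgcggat

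Genes of the ER unfolded protein response were also lower by day. Of 22 tested, 12 fell and none rose, with a median of -0.77, where 2.67% of all genes fell. ZT8 alone called 7, the count was 2 without ZT8 of series 5 and 2 without ZT16 of series 5, and 1 passed without both libraries with pancreas markers. It was 5 without ZT4 of series 3 and 6 without ZT8 of series 3. The plot of list members shows this list and the heat shock list at the lower end of the 24.

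**Figure D3:**
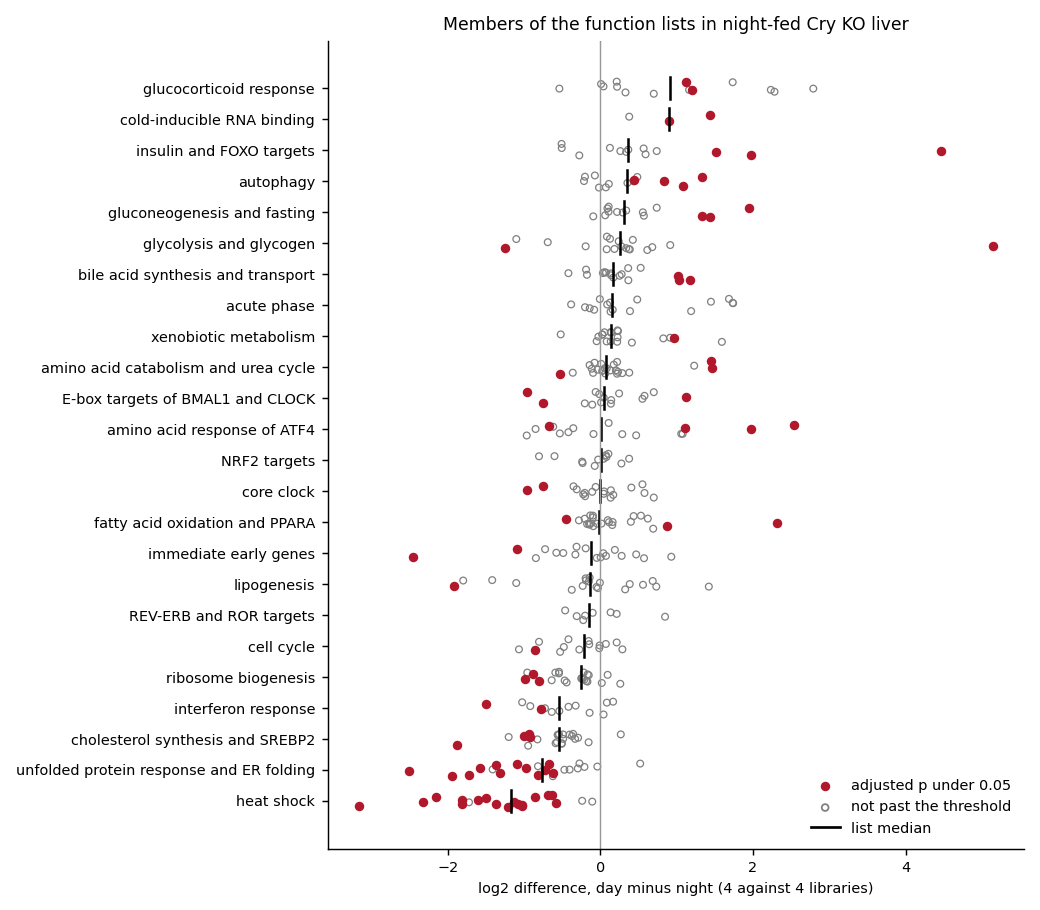
Log2 difference between day and night in Cry KO RF for the tested members of 24 function lists, ordered by list median (black bars); filled points had an adjusted p under 0.05 and open points did not. The heat shock median is -1.18 and that of the unfolded protein response -0.77, while glucocorticoid response genes have the highest median, 0.91. Of these 14 genes 2 are past the threshold, where 4.99% of all genes tested are.

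Creld2 (ENSMUSG00000023272, chromosome 15, 88819646 to 88826683), a disulfide isomerase-like protein induced by ER stress, was 19.1 and 16.2 CPM at ZT4 and 19.4 and 9.23 CPM at ZT8. Its night values were 165 and 84.3 CPM at ZT16 and 33.1 and 71.8 CPM at ZT20. All night libraries were above all day libraries, and the log2 difference was -2.50 ± 0.42 (adjusted p = 0.0179). Sdf2l1, which assists the chaperone BiP, fell by 1.94 ± 0.25 (adjusted p = 0.0117), and Hyou1, the large ER chaperone, by 1.73 ± 0.26 (adjusted p = 0.015). Pdia4, a disulfide isomerase, fell by 1.09 ± 0.15 and Dnajb11, a BiP cochaperone, by 0.98 ± 0.16. Hspa5, the gene of BiP itself (ENSMUSG00000026864, chromosome 2, 34771970 to 34777547), chosen for its role after its values were seen, measured 528 and 748 CPM at ZT4 and 410 CPM in both series at ZT8. It was 1699 and 1537 CPM at ZT16 and 789 and 1211 CPM at ZT20, a log2 difference of -1.31 ± 0.25 (adjusted p = 0.0251).

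The promoter of Creld2 is shown for the ER stress element, the sequence through which ATF6 with NF-Y acts on ER chaperone genes. The motif was CCAAT and CCACG with 9 bases of any kind between them, or CGTGG and ATTGG so spaced on the other strand. It was found before 9 of 19 list members that matched, in 0.13% of all 27025 genes and in 0.18% of 10662 genes tested. Of the 9, Canx, Dnajc3 and Derl3 did not pass the day-night test. Capitals mark it in Creld2 (GRCm38.p6, chr15:88819396-88819645, plus strand), where it lay on the other strand and began 126 bases before the start. None of the 19 held GAANNTTC, and none of the 16 heat shock genes held the ER stress element.
Creld2: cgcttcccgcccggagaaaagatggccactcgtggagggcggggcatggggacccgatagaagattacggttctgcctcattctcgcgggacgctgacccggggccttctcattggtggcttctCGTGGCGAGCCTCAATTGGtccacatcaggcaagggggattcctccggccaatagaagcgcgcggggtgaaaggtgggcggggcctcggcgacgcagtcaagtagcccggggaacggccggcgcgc

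Angptl8 (ENSMUSG00000047822, chromosome 9, 21835510 to 21837347) was 5.91 and 18.3 CPM at ZT4, 16.2 and 7.51 CPM at ZT8, 157 and 211 CPM at ZT16, and 68.8 and 254 CPM at ZT20. Day and night did not overlap, as the naming rule required, and the log2 difference was -3.68 ± 0.42 (adjusted p = 0.00798). Mid1ip1, an activator of acetyl-CoA carboxylase, fell by 2.05 ± 0.26 (adjusted p = 0.0117). In the lipogenesis list 1 of 19 members fell, Aacs, an acetoacetyl-CoA synthetase, by 1.93 ± 0.40 (adjusted p = 0.0297), a share near the 4.99% called among all genes. No member passed without ZT4 or ZT8 of series 3, without ZT8 or ZT16 of series 5, or without the libraries with pancreas markers. Without ZT16 of series 3 there was 1 call, higher by day. DESeq2 called 1 higher and 2 lower, ZT8 alone 4 lower, and the fit without ZT4 of series 5 called 5 lower. Fasn, the fatty acid synthase, had a log2 difference of -1.42 ± 0.43 (adjusted p = 0.0845) over all 8 libraries. Its ZT4 library of series 5 held 1841 CPM against 202.5 and 361 CPM at ZT8, and ZT8 alone gave -2.60 (adjusted p = 0.00822).

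In the cholesterol list, 4 of 23 members fell and none rose, with a median of -0.54, where 2.67% of all genes fell. Insig1, which retains SREBP proteins in the ER, stood at 267 and 355 CPM at ZT4 and 243 and 435 CPM at ZT8. It was 503 and 677 CPM at ZT16 and 553 and 708 CPM at ZT20. Every night library was above every day library, and the log2 difference was -0.92 ± 0.12 (adjusted p = 0.0117). Mvd, an enzyme of the mevalonate pathway, fell by 1.88 ± 0.28 (adjusted p = 0.0141), from 32.5 to 35.9 CPM at night to 4.94 to 17.8 CPM by day. The count was 3 to 5 whichever single library was left out, and 2 without both libraries with pancreas markers.

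Actg1, a cytoplasmic actin, stood at 20.6 to 30.2 CPM by day. It measured 149 and 152 CPM at ZT16 and 55.1 and 66.2 CPM at ZT20, a log2 difference of -2.08 ± 0.34 (adjusted p = 0.0161). Tubb2a, a beta-tubulin, fell by 1.95 ± 0.42 (adjusted p = 0.0324). Of 22 ribosome biogenesis genes 3 fell, where 2.67% of all genes did. Rrp12, Rrp9 and Nolc1 fell by 0.99, 0.81 and 0.88, with adjusted p-values of 0.0311, 0.0461 and 0.0499. No member passed from ZT8 alone, without ZT4, ZT8 or ZT16 of series 3, without ZT8 or ZT16 of series 5, or without the libraries with pancreas markers, and 8 passed without ZT20 of series 3. Ccnd1, the D-type cyclin of the G1 phase, fell by 0.86 ± 0.16, 1 of 14 in its list. In the interferon list 2 of 13 fell, Stat2 and Cxcl10, by 0.78 and 1.5. Among immediate early genes 2 of 18 fell, Dusp6 and Atf3, by 1.09 and 2.46, where 2.67% of all genes fell. No member of the cell cycle, interferon or immediate early lists passed without ZT8 of series 5, without ZT16 of series 5 or without the libraries with pancreas markers.

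Core clock genes showed small differences. Of 18 tested, 2 were lower by day and none higher, with a median of -0.01, where 2.67% of all genes were lower. Per2, a repressor partner of CRY, stood at 66.3 and 65.8 CPM at ZT4 and 61.6 and 55.1 CPM at ZT8. At night it was 104 and 111 CPM at ZT16 and 93.3 and 114 CPM at ZT20, a log2 difference of -0.76 ± 0.12 (adjusted p = 0.0151). Bhlhe41, an E-box repressor, fell by 0.96 ± 0.22 (adjusted p = 0.0367). When the 4 groups were fitted together, with a spread estimated from all of them, no core clock gene passed in Cry KO RF. In that fit Per2 had a log2 difference of -0.78 ± 0.33 in Cry KO RF, with an adjusted p of 0.12. Without ZT8 of series 5, without ZT16 of series 5, or without the libraries with pancreas markers, the count was also 0. It was 1 without ZT4 or ZT16 of series 3 or without ZT20 of series 5, and 4 without ZT20 of series 3.

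The range over all 6 times was narrow for most of these genes. In Cry KO RF the ratio of the highest to the lowest time mean had a median of 1.75 over the 18 genes, with a maximum of 2.52 (Nfil3). The median in Cry WT RF was 8.76 and the maximum 295 (Dbp, an output gene of the clock). For 17 of the 18 the range was smaller in Cry KO RF. Dbp stayed between 46 and 75.8 CPM over the 12 Cry KO RF libraries and ran from 0.329 to 138 CPM in Cry WT RF. Nr1d1, the gene of REV-ERB alpha, ran from 25.6 to 53.4 CPM and from 1.25 to 143 CPM, respectively. No test was run on these ranges.

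**Figure D4:**
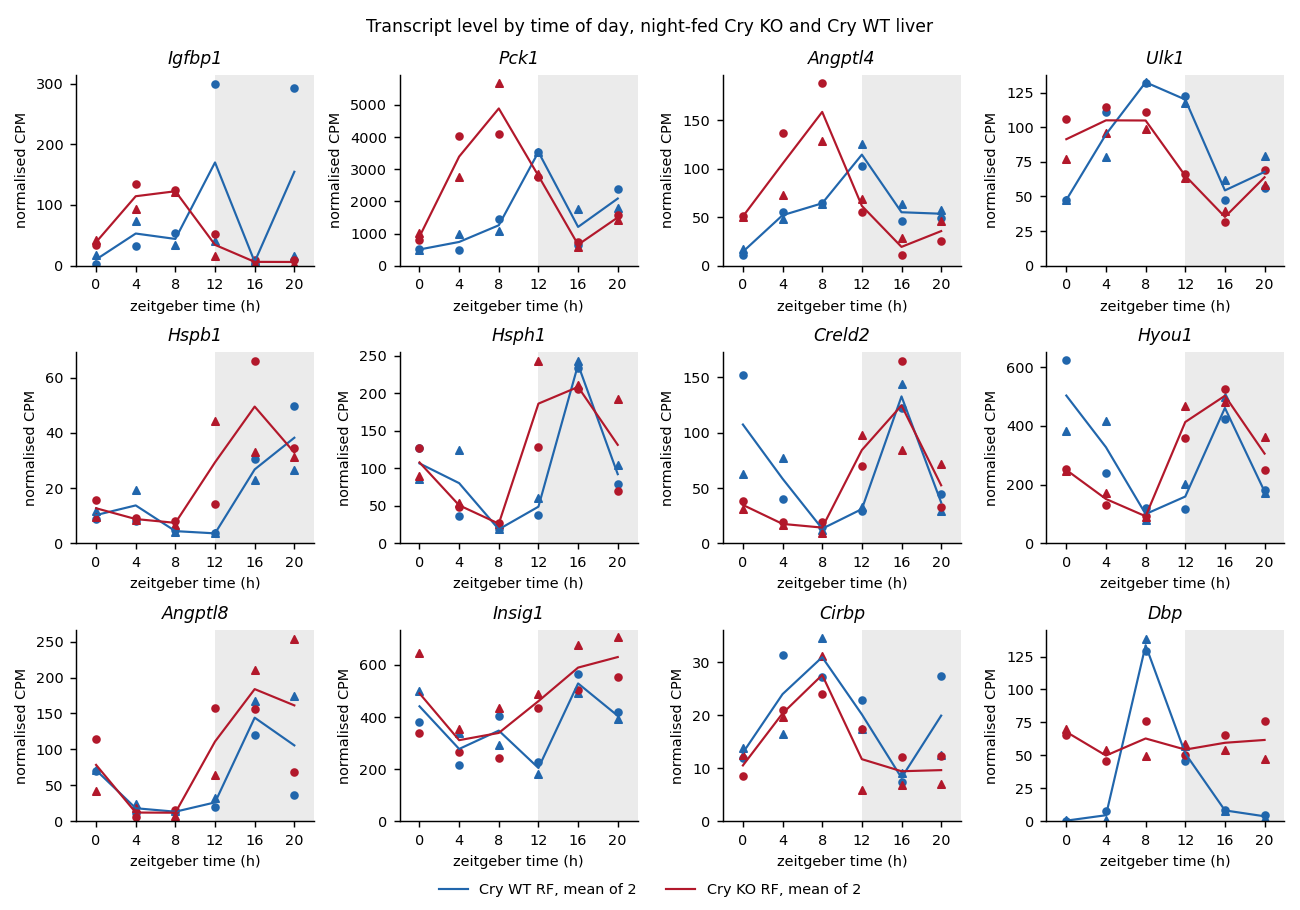
Normalised CPM against zeitgeber time for 12 genes in Cry KO RF (red) and Cry WT RF (blue); points are single libraries (circles for the lower-numbered series, triangles for the higher), lines join the mean of 2, and the dark phase is shaded. In Cry KO RF, Igfbp1 and Pck1 are high at ZT4 and ZT8 and Hspb1, Creld2 and Angptl8 at ZT16, while Dbp stays between 46 and 75.8 CPM and reaches 138 CPM in Cry WT RF.

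Smaller groups moved as follows, where 2.32% of all genes rose and 2.67% fell. Of 3 RNA-binding genes that cooling induces, Cirbp and Srsf5 rose by 1.44 ± 0.22 (adjusted p = 0.015) and 0.90 ± 0.18 (adjusted p = 0.0273). Cirbp measured 21 and 19.7 CPM at ZT4 and 24.1 and 31.1 CPM at ZT8. Its night values were 12.1 and 6.78 CPM at ZT16 and 12.3 and 6.95 CPM at ZT20. Srsf5 overlapped between day and night, since its series 3 library at ZT20 held 196 CPM against 181 CPM in the series 5 library at ZT4. The third, Rbm3, had a log2 difference of 0.38 ± 0.12 (adjusted p = 0.0946). Without ZT16 of series 5 or without the libraries with pancreas markers no member passed, and ZT8 alone called 1.

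Of 17 bile acid genes, 3 rose, where 2.32% of all genes did. They were Cyp8b1, which sets the share of cholic acid (1.02 ± 0.17), and the sterol exporters Abcg5 (1.03 ± 0.19) and Abcg8 (1.17 ± 0.25). ZT8 alone called none of the 17, nor did the fits without ZT8 of series 5, without ZT16 of series 5 or without the libraries with pancreas markers, and 1 passed without ZT4 of series 3. Of 14 glucocorticoid response genes, 2 rose, the transcription factor Klf9 by 1.2 ± 0.20 and Errfi1, an inhibitor of the EGF receptor, by 1.12 ± 0.23, and neither passed without ZT8 of series 5 or without the libraries with pancreas markers. Zbtb16, another target of the glucocorticoid receptor, had a log2 difference of 2.28 ± 0.69 (adjusted p = 0.0829), with 53 CPM in the ZT20 library of series 5 against 2.77 to 5.9 CPM in the other night libraries. Por, the electron donor of cytochrome P450 enzymes, rose by 0.97 ± 0.16, 1 of 19 xenobiotic genes, where 4.99% of all genes passed. Pim3, a kinase gene with E-boxes, rose by 1.13 ± 0.19. No member passed in the REV-ERB and ROR target list (8 tested), the NRF2 list (12) or the acute phase list (16).

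Within the day and within the night no gene passed. In a fit with a mean per time, 0 of 15320 genes differed between ZT4 and ZT8 and 0 between ZT16 and ZT20 (edgeR, adjusted p under 0.05, 0% in each), with 918 and 1094 genes at an unadjusted p under 0.05. Each of these tests compared 2 libraries with 2, the first including both shallow libraries. Leaving out single libraries gave 0 to 26 calls for the first and 0 to 93 for the second, the latter without ZT16 of series 5. No other tool was run on them.

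The same contrast was fitted in the 4 groups together over 16325 genes, so that the differences between groups could be tested. In that fit 1660 genes (10.2%) differed between day and night in Cry KO RF, 734 higher by day (4.5%) and 926 by night (5.67%). In Cry WT RF 2256 (13.8%) did, 1035 higher by day (6.34%) and 1221 by night (7.48%). In Bmal1 KO RF 294 (1.8%) passed, 103 higher by day (0.631%) and 191 by night (1.17%), and in Cry KO AL 8 (0.049%), all higher by day. These counts do not by themselves show that the groups differ. The test of the difference from Cry WT RF passed for 238 genes (1.46%), 157 of them (0.962%) with a higher value of day minus night in the knockout and 81 (0.496%) with a lower one. Without the ZT4 libraries of all groups 71 passed. The count was 147 without ZT4 of series 3, 122 without ZT8 of series 5 and 112 without ZT16 of series 5. No fit of the differences between groups left out both libraries with pancreas markers.

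**Figure D5:**
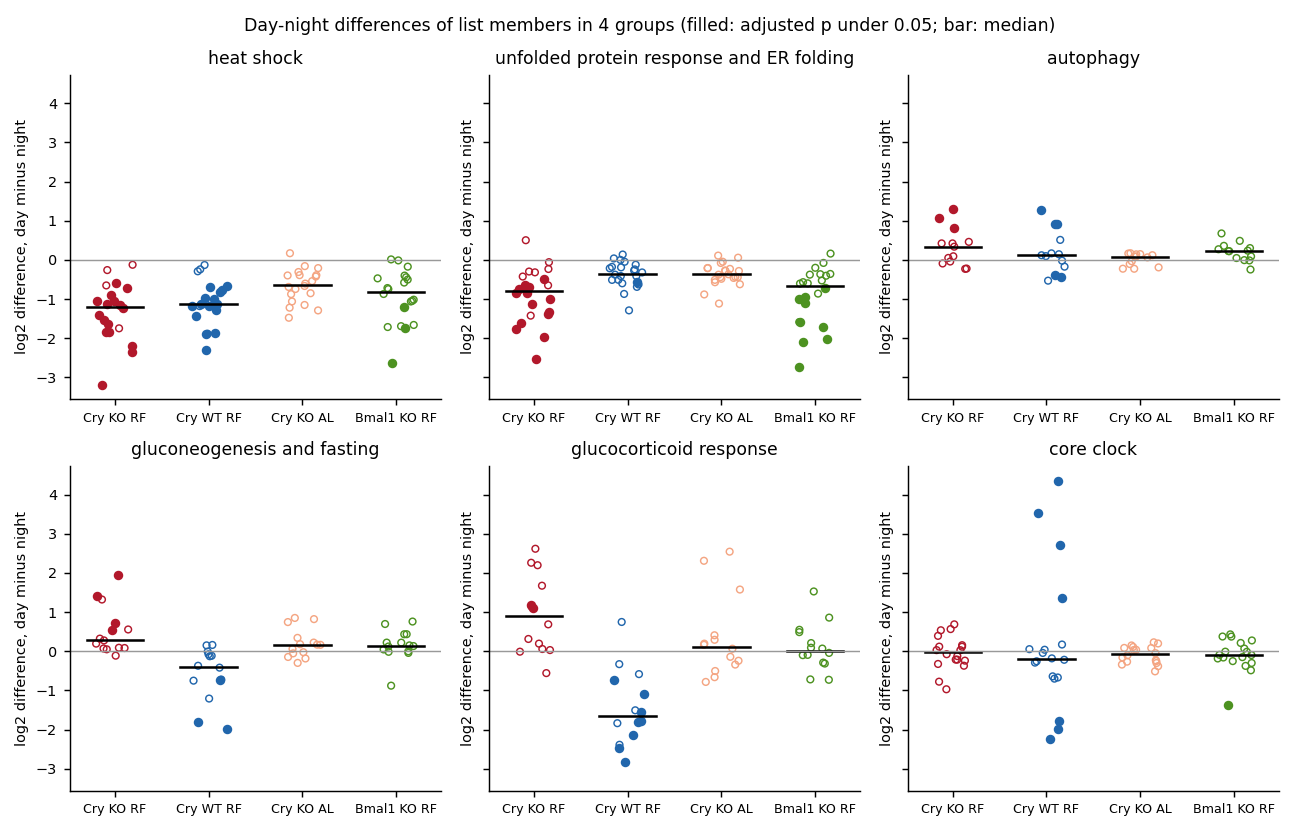
Log2 difference between day and night of the members of 6 lists in each of 4 groups, from the fit of 32 libraries; filled points had an adjusted p under 0.05 and bars are medians over the members drawn, those that were also tested in Cry KO RF alone. Heat shock medians lie below 0 in all 4 groups, while those of gluconeogenesis and glucocorticoid response are above 0 in Cry KO RF and below 0 in Cry WT RF.

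For heat shock genes no member passed the test of the difference from any of the 3 groups. In this fit 16 of 20 were lower by day in Cry KO RF and 15 in Cry WT RF, with medians of -1.2 and -1.13. In Bmal1 KO RF 3 passed and in Cry KO AL none, with medians of -0.81 and -0.64. Of all genes, 5.67% were lower by day in Cry KO RF and 7.48% in Cry WT RF. The shares were 1.17% in Bmal1 KO RF and 0% in Cry KO AL. Hspb1 in Cry KO AL had a log2 difference of -1.48 (adjusted p = 0.19). For the unfolded protein response 14 of 22 were lower by day in Cry KO RF, 9 in Bmal1 KO RF, 1 in Cry WT RF and none in Cry KO AL, but no member passed the test of any difference. Hyou1 in Cry WT RF was 623 and 383 CPM at ZT0 and 424 and 498 CPM at ZT16, and its log2 difference of -0.60 there had an adjusted p of 0.37.

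Genes of glucose production differed from Cry WT RF. Of 14 gluconeogenesis genes, 5 had a significantly higher day minus night value in Cry KO RF (Pck1, G6pc, Foxo1, Gpt2 and Tat). Over all genes 0.962% did. For Pck1 the log2 difference was 1.94 in the knockout and -0.72 in Cry WT RF, and the difference between them was 2.66 ± 0.58 (adjusted p = 0.018). In Cry WT RF, Pck1 was highest at ZT12, at 3532 and 3540 CPM, a time outside the contrast. For G6pc the difference between groups was 2.53 ± 0.65 (adjusted p = 0.0457). A fit of these 2 groups alone called 128 genes in all, and whether the members named here were among them is not given.

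Glucocorticoid targets differed from Cry WT RF as well. In Cry WT RF 8 of 14 were higher by night, with a median of -1.66. In Cry KO RF 2 were higher by day, with a median of 0.89. Over all genes these shares were 7.48% and 4.5%. A significantly higher day minus night value in Cry KO RF was found for 0.962% of all genes. The difference passed for 4: Fkbp5, a cochaperone of the glucocorticoid receptor (3.96 ± 0.61, adjusted p = 0.000794), Tsc22d3, an anti-inflammatory mediator (2.13), Errfi1 (2.19) and Tat, a tyrosine-degrading enzyme (2.01). In Cry KO RF Fkbp5 was 166 and 134 CPM at ZT4 and 59.7 and 149 CPM at ZT8, against 36.1 and 58.2 CPM at ZT16 and 23.7 and 146 CPM at ZT20. The ZT20 library of series 5 was thus as high as the day libraries, and day against night in Cry KO RF alone did not pass (adjusted p = 0.13). Amino acid catabolism also differed, with 13 of 24 members higher by night in Cry WT RF and none in the other direction, against 1 and 3 in Cry KO RF, and with 6 that passed the test of the difference, Got1 among them (2.56).

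Lingo4, Nr1d1, Gde1, Slc25a51 and Atl2 were among the genes with the smallest p-values for the difference from Cry WT RF. For Lingo4 the difference was 3.04 ± 0.31 (adjusted p = 4.65e-06). For Nr1d1 the difference was -4.57 ± 0.51 (adjusted p = 1.42e-05), with log2 values of -0.21 in Cry KO RF and 4.36 in Cry WT RF. Cyp2u1, a fatty acid hydroxylase, was lower by day in Cry KO RF (-1.77 ± 0.31, adjusted p = 0.0193) and not in Cry WT RF (0.60), with a difference of -2.38.

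Against Cry KO AL no gene passed (0 of 16325, 0%, edgeR), and 1801 had an unadjusted p under 0.05. With DESeq2 26 passed and with limma-voom 1, and without the ZT20 library of series 3 edgeR called 34. Igfbp1 in Cry KO AL ranged from 6.78 to 569 CPM over the 12 libraries. The 2 series of Cry KO AL stood apart at the compared times. Liver endothelial markers summed to 390.2 to 430.5 CPM in series 1 and to 78.41 to 158.3 CPM in series 2. The ZT20 library of its series 2 was also shallow. The part of either in the counts for Cry KO AL was not tested. Against Bmal1 KO RF 3 genes passed (0.0184%), Trim12a and Ighm with a higher value in Cry KO RF (0.0123%) and Zfp467 with a lower one (0.00613%). None passed without the ZT4 libraries of all groups, nor in a fit of the 2 groups alone. Zfp467, a zinc finger gene, fell by day in Cry KO RF by 0.69 ± 0.15 (adjusted p = 0.0332) and had a log2 difference of 0.41 in Bmal1 KO RF. Trim12a belongs to a family of near-identical Trim genes, so its reads are uncertain. It had 0 to 2.91 CPM in Bmal1 KO RF, and its fitted difference depends on the prior count.

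At least 1 marker of another cell type passed in each of 3 lists, and of these only the B and T cell sums separated day from night. B and T cell markers summed to 20.4 to 79.5 CPM by day and 7.41 to 13.7 CPM by night. Of 9 tested 2 rose, both B cell genes, where 2.32% of all genes rose. Ighm made up most of the sum by day. The T cell markers Cd3e, Cd3d, Cd3g and Trac overlapped in range between day and night. The lowest log2 difference in the list was -0.57. Ighm, the heavy chain of IgM, was 12.5 and 61.3 CPM at ZT4 and 56.8 and 33.9 CPM at ZT8, against 4.04 to 7.51 CPM at night, a log2 difference of 2.87 ± 0.38 (adjusted p = 0.0117). Cd79b, a subunit of the B cell receptor, rose by 1.23 ± 0.30 (adjusted p = 0.0474), and no marker of this list was at 0 in every day library. In bulk liver, fewer cells of a type and less RNA per cell cannot be told apart. Exocrine pancreas markers passed for 3 of 11 (Cpb1, Clps and Cela3b, chosen after their values were seen) without separating day from night, since the day libraries of series 3 summed to 1.31 and 0.739 CPM. Ctrb1, a chymotrypsinogen that did not pass, was at 0 in both of those and at 243 and 41.1 CPM in the series 5 day libraries. Among cholangiocyte markers Sox9 fell by 0.96 ± 0.20, while the list's sums overlapped. No tested marker passed for Kupffer cells, neutrophils, endothelial, stellate, erythroid or fat cells, or for hepatocytes. Only 3 of 7 neutrophil markers and 2 of 6 fat cell markers had enough counts to be tested. Of the untested fat markers, Adipoq reached 1.188 CPM by day and 0.04018 CPM by night, and Cfd 2.146 and 0.1205 CPM. Plin1 reached 0.5748 and 0.04015 CPM, and Lep 0.03832 and 0 CPM. Each of these was at 0 in 2 or 3 of the day libraries. The part of these cells in the gene lists above was not tested.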

How the data were processed

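Poly(A) RNA of mouse liver was sequenced with a stranded TruSeq kit, per the labels' protocols. The authors deposited whole-number read counts per gene. STAR 2.4.0i and mm10 are named in the submitters' processing notes, and the counting tool is not given in the sources used here. Of 55421 identifiers 55240 had a symbol, and the rest held 0.0244% of counts. The 8 libraries were tested with edgeR 4.0.16 (R 4.3.3; TMM, filterByExpr with a minimum count of 10 and total of 15, quasi-likelihood fit, series as a block, Benjamini-Hochberg adjustment). Fitted log2 differences use a prior count of 0.125. Levels are CPM with TMM factors over the 48 libraries of the 4 groups. Groups were compared in a fit of 32 libraries with a block per series. Scripts were tested on simulated data. Alternatives were RLE size factors, other filters, no block, DESeq2 1.42.0, limma-voom 3.58.1, ZT8 alone and leaving out libraries. Omitting the libraries with pancreas markers and the 4-group value were added after seeing the data. Named genes were the 15 largest rises and falls of at least 5 CPM without overlap and with the same direction at ZT8. They also included up to 4 members per list by p-value, core clock genes, Cry1 and Cry2. The last were the 6 smallest p-values per difference and the highest member of each marker list with a call. Hsf1, Hspa1a, Hspd1, Hspa5, Fkbp5, Tsc22d3, Tat, Sox9 and Cd79b were chosen after their values were seen, and some genes picked by the rule are not reported here. The members and the 34 lists were chosen with earlier results of these data known. Lists are described by counts and medians, with no set test.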

Additional observations from a re-analysis of the deposited data

Results flagged for a closer look

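In 18 of 196 groups tested a single library stood far from the other 3 of its side of the day by Dixon's test, which chance gives in about 1 in 20 groups. By day these were Irs2 (37.3 CPM), Smad9 (63.9 CPM), Hspa1a (0.389 CPM), Abcg8 (163 CPM) and Slc25a51 (117 CPM) at ZT8 of series 3. Fbxo32 (5.91 CPM) and Wipi1 (29.6 CPM) stood apart at ZT4 of series 3, and Tcp11l2 (21.3 CPM), Chordc1 (34.3 CPM) and Ctrb1 (243 CPM) at ZT4 of series 5. By night they were Fbxo32 (2.81 CPM), Tcp11l2 (16.3 CPM), Hsph1 (70.1 CPM), Per3 (67.9 CPM) and Nolc1 (33.2 CPM) at ZT20 of series 3. The others were Hspb1 (66 CPM) and Sdf2l1 (79.5 CPM) at ZT16 of series 3, and Zbtb16 (53 CPM) at ZT20 of series 5.

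The test of the difference from Cry WT RF passed for 238 genes. Day minus night was higher in Cry KO RF, on the log2 scale, for Fkbp5 (3.96), Lingo4 (3.04), Pck1 (2.66), Got1 (2.56), G6pc (2.53), Por (2.28), Errfi1 (2.19), Tsc22d3 (2.13), Cry1 (2.05), Tat (2.01), Slc25a51 (1.87), Pim3 (1.65), Gde1 (1.32), Foxo1 (1.09) and Atl2 (1.09). It was lower for Nr1d1 (-4.57), Cyp2u1 (-2.38) and Zfp467 (-0.76). The test of the difference from Bmal1 KO RF passed for 3 genes, Trim12a (7.91), Ighm (3.02) and Zfp467 (-1.11).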

How the results depend on the processing

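Against 728 genes that differed between day and night in Cry KO RF, 2120 passed with no filter on low counts, 1556 with DESeq2, 238 from ZT8 alone, 17 in series 3 alone, 17 without the 2 libraries with pancreas markers and 1660 in the 4-group fit. Leaving out each library gave 43 to 1187. For the difference from Cry WT RF, against 238, the counts were 930 with no filter, 512 with DESeq2, 71 without the ZT4 libraries, 128 in a fit of the 2 groups and 112 to 243 leaving out each library. For Cry KO AL, against 0, they were 547 with no filter, 1 with limma-voom, 26 with DESeq2 and 0 to 34 leaving out each library. For Bmal1 KO RF, against 3, they were 366 with no filter, 1 with limma-voom, 37 with DESeq2, 0 without the ZT4 libraries, 0 in a fit of the 2 groups and 1 to 3 leaving out each library. With no filter, ZT4 against ZT8 gave 216 and ZT16 against ZT20 gave 302, and leaving out each library gave 0 to 26 and 0 to 93. The cause of these changes was not tested.

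Without the replicate block 618 genes passed in place of 728, 100 in place of 238 for the difference from Cry WT RF, and 0 in place of 3 for Bmal1 KO RF. The series numbers entered the fits as blocks. Deviations of same-numbered libraries correlated between times at 0.217, -0.0338, 0.113, 0.0996, 0.112 and 0.325 over 8100 genes, so not every pair of times deviated together, and a shared source of same-numbered libraries is not claimed.

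Among named genes that had not passed, signs turned as follows. ZT8 alone gave 0.0445 for Dbp and 0.0177 for Nr1d1. Leaving out each library in turn gave -0.197 to 0.056 for Dbp, -0.556 to 0.0319 for Arntl, -0.123 to 0.238 for Tsc22d3, -0.0711 to 0.468 for Tat and -0.165 to 0.0089 for Gde1. Tsc22d3 had -0.0399 with no replicate block and -0.0126 in the 4-group fit. Without the libraries with pancreas markers the values were 0.133 for Hspa1a, -0.0113 for Tat, -0.186 for Lingo4 and -8.80 for Ctrb1. The shallow ZT4 libraries limit what can be seen of genes with few counts.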
